A study of Capra hircus with 6 samples.

Results

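KIT, its ligand KITLG and 6 genes used as mast cell markers (CPA3, MS4A2, FCER1A, HDC, GATA2 and HPGDS) were followed through goat skin that bears black hair and skin that bears white hair. The genes were chosen by symbol, and all 8 were found among the 26951 named genes. The tissue was hair-bearing skin taken from Boer x Macheng Black crossbreds, animals whose heads are black and bodies white, with 3 libraries from black-coated regions (black replicates 1 to 3) and 3 from white-coated regions (white replicates 4 to 6). Total RNA was sequenced after removal of ribosomal RNA. The age, the body site of each sample and the number of goats are not given in the labels, so coat colour and body site cannot be told apart. The labels do not say which replicates are separate goats and which, if any, share one, so a p-value here speaks of the spread among libraries, part of which may be technical.

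KIT is a receptor tyrosine kinase carried by melanocytes and their precursors and by mast cells. KITLG, also called stem cell factor, is made by keratinocytes, fibroblasts and endothelial cells and keeps both cell types alive in skin. Mast cells are resident immune cells whose granules hold proteases and histamine, and they respond through a high affinity receptor for IgE. Bulk skin RNA sums over all of these cells, so KIT is set here beside genes of both cell types. In such samples fewer cells of a type and less RNA per cell cannot be told apart.

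The libraries did not form uniform groups. Where 3 values are given for a group, they are black replicates 1, 2 and 3 or white replicates 4, 5 and 6, in that order. Reads in named genes numbered between 12648817 and 22085079 per library. Black replicate 1 stood apart: 8 tested genes of the hair matrix, inner root sheath and shaft lay 3.31 log2 units below their mean over all libraries there, and between 0.28 and 0.98 above it in the other 5. Of the 15778 genes with enough reads to be tested, 30.3% had their highest level in black replicate 1. LOC108634721, described as a Y-linked translation initiation factor gene, had 1, 688 and 0 reads in black-coated skin, against 934, 801 and 767 reads in white-coated skin. Black replicates 1 and 3 thus lacked the reads that the other 4 libraries had, so the libraries cannot all come from 1 goat. By the same reads neither of these black libraries shares a goat with any white one. The contrast of black- and white-coated skin is therefore in part one between goats. Sex is not given in the labels, and the part of sex in the results was not tested. Because black replicate 1 stood apart, results are given with and without black replicate 1. Levels are in CPM, each read count divided by its library's scaled total, unless FPKM, the authors' value per transcript length, is named.

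None of the 8 genes was called different between black- and white-coated skin. In edgeR's quasi-likelihood test 0 of the 8 genes passed an adjusted p of 0.05, beside 0 of all 15778 genes tested (0%). At an unadjusted p under 0.05 there were 0 of the 8 genes and 536 of all genes. DESeq2 called 78 of all genes (0.494%) and 0 of the 8, and limma-voom called 0 of both. By DESeq2 KIT (unadjusted p = 0.0352, adjusted p = 0.967) and FCER1A (unadjusted p = 0.0348, adjusted p = 0.967) were under 0.05 before adjustment. In edgeR KIT was so without black replicate 2 (unadjusted p = 0.0296, adjusted p = 0.966) and without black replicate 3 (unadjusted p = 0.0451, adjusted p = 0.686). FCER1A was so without black replicate 3 (unadjusted p = 0.0166, adjusted p = 0.593). In each of the 8 genes the groups overlapped, where 3.81% of all tested genes lay wholly higher and 4.99% wholly lower in black-coated skin. The median log2 fold change of the 8 genes, black over white, was 1.0, beside 0.02 for all genes tested. It was -0.99 without black replicate 1, beside 0.00 for all genes, so the sign of the median rested on that library.

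**Figure D1:**
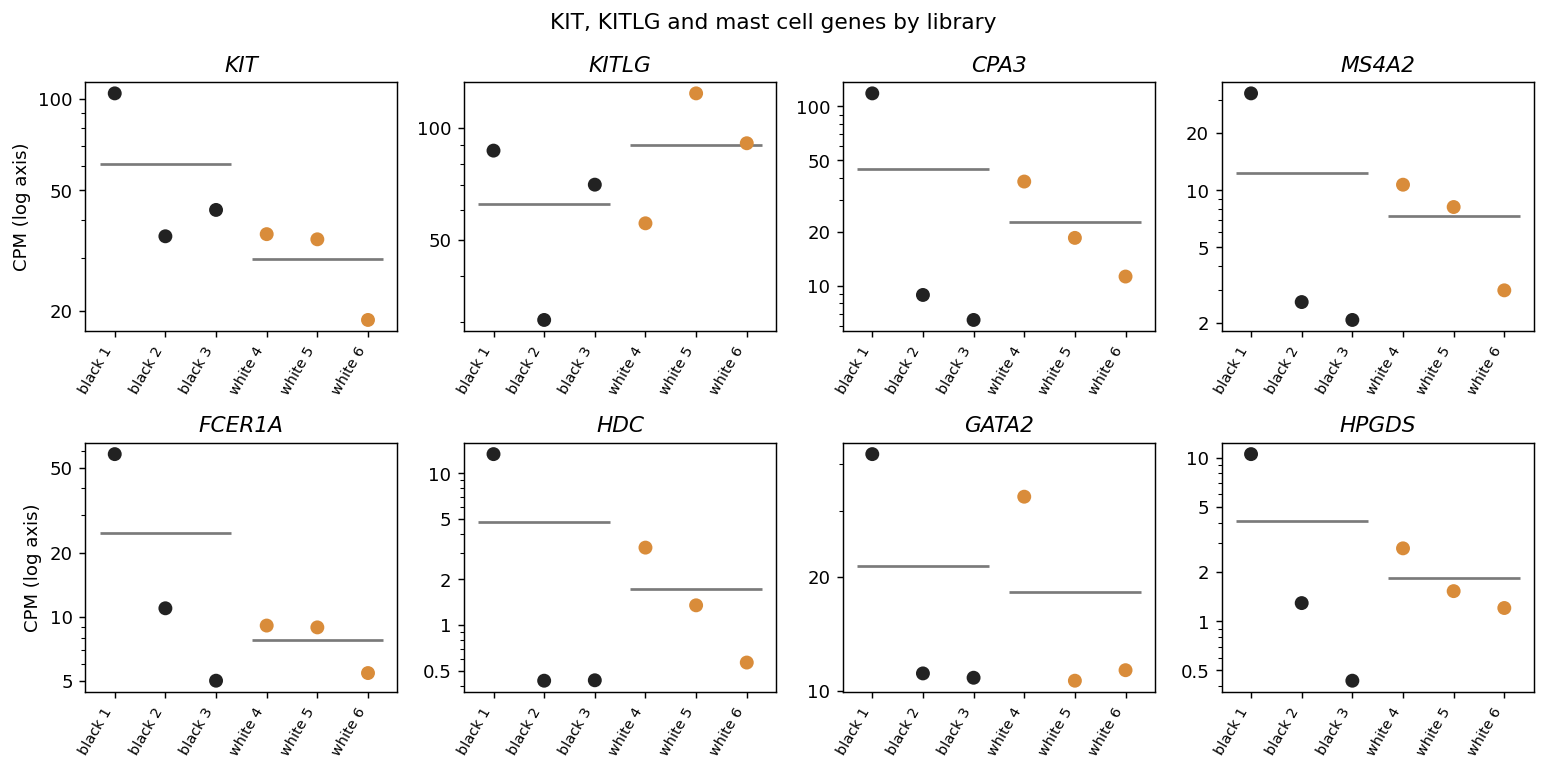
Level of each of the 8 genes in CPM (log axis) in the 3 black (dark points) and 3 white (orange points) libraries, with grey lines at the group means. Black replicate 1 is the highest library for every gene except KITLG, and white replicate 4 is the second highest for CPA3, MS4A2, HDC, GATA2 and HPGDS.

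KIT had 1470, 492 and 995 reads in black replicates 1 to 3, which gave 104, 35.3 and 43.1 CPM. In white replicates 4 to 6 it had 630, 587 and 264 reads, which gave 35.9, 34.5 and 18.7 CPM. Black replicate 1 was far above the rest, and black replicate 2 lay below white replicate 4, so the groups overlapped. The means were 60.9 ± 37.8 CPM in black-coated and 29.7 ± 9.53 CPM in white-coated skin (SD, n = 3 each). The log2 fold change was 1.03 (SE 0.46, edgeR adjusted p = 0.999995). Without black replicate 1 it was 0.40 (SE 0.29, edgeR adjusted p = 0.68). In order of level the libraries ran black 1, black 3, white 4, black 2, white 5 and white 6. The middle 4 of them lay between 34.5 and 43.1 CPM.

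The deposited table lists 2 KIT transcripts, isoform X1 and a receptor precursor, and the reads of isoform X1 stand for the gene here. The precursor row held 74.4%, 67.9% and 74.1% as many reads in black replicates 1 to 3, and 67.3%, 72.2% and 68.6% in white replicates 4 to 6. This is a ratio of 2 rows that may count the same reads, not a share of transcripts. The authors' FPKM of the precursor was near 0, at 0.0882, 1.2e-06 and 0.111 in black-coated skin, against 0.132, 0.141 and 0.129 in white-coated skin. The FPKM of isoform X1 was 17.99, 4.76 and 6.92 in black-coated skin, against 5.62, 5.39 and 2.58 in white-coated skin.

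KITLG, the ligand, did not share this pattern. It had 86.8, 30.4 and 70.3 CPM in black-coated skin, against 55.3, 124 and 90.8 CPM in white-coated skin. Here white replicate 5 was the highest library and black replicate 2 the lowest, and the groups overlapped. The means were 62.5 ± 29.0 CPM in black-coated and 89.95 ± 34.2 CPM in white-coated skin (SD, n = 3 each), a log2 fold change of -0.53 (SE 0.44, edgeR adjusted p = 0.999995). The value was negative without each library in turn, from -0.83 without black replicate 1 to -0.20 without black replicate 2.

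Both KITLG transcripts in the table, isoform X1 and a ligand precursor, carry the same read counts in all 6 libraries, so the counts cannot tell them apart. In FPKM the precursor made up 72.1%, 46.0% and 64.8% of the sum of both rows in black replicates 1 to 3. In white replicates 4 to 6 it made up 57.1%, 53.8% and 70.8%. The share varied within both groups and the groups overlapped. Summed over both rows, KITLG had 14.78, 4.42 and 11.25 FPKM in black-coated skin, against 8.93, 19.15 and 13.09 FPKM in white-coated skin.

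KIT relative to its ligand was higher in 2 of 3 black libraries than in any white one. The ratio of KIT to KITLG in CPM was 1.20, 1.16 and 0.613 in black-coated skin, against 0.648, 0.279 and 0.206 in white-coated skin. The groups overlapped only in that black replicate 3 lay just under white replicate 4. With 3 libraries against 3, an exact permutation test of 1 value cannot reach 0.05, and none was made.

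CPA3, mast cell carboxypeptidase A, is a granule protease. Among the mast cell markers chosen by symbol CPA3 had the highest level per length in black replicate 1 and in each white library. In FPKM the alpha subunit of the IgE receptor, FCER1A, was above it in black replicates 2 (9.11 against 4.16) and 3 (4.58 against 3.48). In CPM the spread of CPA3 over libraries was wide. It had 118, 8.89 and 6.45 CPM in black-coated skin, against 38.1, 18.5 and 11.3 CPM in white-coated skin. Black replicate 1 held 10.5 times the median of the other 5 libraries, while black replicates 2 and 3 were the lowest of all. The log2 fold change was 0.97 (SE 1.10, edgeR adjusted p = 0.999995), and without black replicate 1 it turned to -1.57 (SE 0.53, unadjusted p = 0.0229, edgeR adjusted p = 0.425).

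The IgE receptor genes differed from each other in their spread. MS4A2, the beta subunit, had 32.4, 2.58 and 2.08 CPM in black-coated skin, against 10.7, 8.16 and 2.98 CPM in white-coated skin. This is the order of CPA3, library by library. Its log2 fold change was 0.75 (SE 1.07), and -1.65 without black replicate 1 (SE 0.55, unadjusted p = 0.0177, edgeR adjusted p = 0.418). FCER1A, the alpha subunit that binds IgE, had 57.9, 10.97 and 5.02 CPM in black-coated skin, against 9.11, 8.93 and 5.46 CPM in white-coated skin. For FCER1A black replicate 2 was the second highest library, unlike for MS4A2. Its log2 fold change was 1.65 (SE 0.85), and 0.02 without black replicate 1 (SE 0.40).

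The enzymes that make mast cell mediators were rare transcripts. HDC, which makes histamine, had 189, 6 and 10 reads in black-coated skin, against 57, 23 and 8 reads in white-coated skin. In CPM this was 13.4, 0.43 and 0.433 in black-coated skin and 3.24, 1.35 and 0.567 in white-coated skin. Black replicate 1 stood far above all others and black replicates 2 and 3 were the lowest. The 95% counting interval of black replicate 2 ran from 0.158 to 0.937 CPM and that of white replicate 6 from 0.245 to 1.12, so these libraries cannot be ordered at this depth. The log2 fold change was 1.44 (SE 1.37), and -1.99 without black replicate 1 (SE 0.80, unadjusted p = 0.0385, edgeR adjusted p = 0.47).

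HPGDS, the hematopoietic enzyme that makes prostaglandin D2, had 148, 18 and 10 reads in black-coated skin, against 49, 26 and 17 reads in white-coated skin. These gave 10.5, 1.29 and 0.433 CPM in black-coated skin and 2.79, 1.53 and 1.20 CPM in white-coated skin. Black replicate 1 was again the highest library and the groups overlapped. The log2 fold change was 1.13 (SE 1.08), and -1.14 without black replicate 1 (SE 0.65).

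GATA2, a transcription factor of mast cells, blood progenitors and endothelium, took another shape. It had 42.4, 11.1 and 10.8 CPM in black-coated skin, against 32.7, 10.6 and 11.3 CPM in white-coated skin. Black replicate 1 and white replicate 4 were high, and the other 4 libraries lay between 10.6 and 11.3 CPM. The log2 fold change was 0.23 (SE 0.68), and -0.73 without black replicate 1 (SE 0.52). Of 15 tested endothelial genes 12 were also highest in black replicate 1. Their summed level was 1543, 882 and 973 CPM in black-coated skin, against 1119, 1087 and 1159 CPM in white-coated skin. Their part in the GATA2 values was not tested.

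Without black replicate 1 the black-coated libraries were the lower ones for 3 of the mast cell genes. CPA3, MS4A2 and HDC then lay wholly lower in black-coated skin, 3 of 8 genes where 14.5% of all tested genes did so and 13.6% lay wholly higher. Counting error limits this separation: the 95% counting intervals of black replicate 2 and white replicate 6 overlapped for each of them. These were 7.40 to 10.6 and 9.58 to 13.2 CPM for CPA3, and 1.81 to 3.57 and 2.14 to 4.02 CPM for MS4A2. The same 3 genes had an unadjusted p under 0.05, beside 1610 of 16022 genes tested in that setting. None passed the adjusted threshold, beside 16 of all genes (0.0999%). White replicate 4 had the highest level of the 5 libraries for each of these 3 genes.

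**Figure D2:**
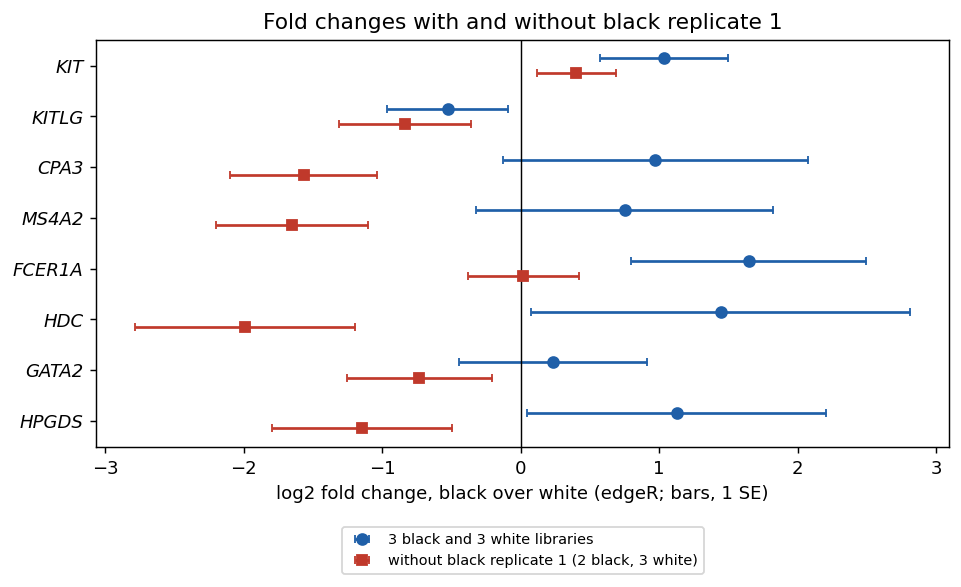
Log2 fold change of each gene, black over white, from edgeR, with bars of 1 SE, over all 6 libraries (blue circles) and without black replicate 1 (red squares). CPA3, MS4A2, HDC, GATA2 and HPGDS change sign, FCER1A moves to 0.02, and KIT and KITLG keep theirs.

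The proportion of CPA3 to MS4A2 varied less than either gene. The ratio of their CPM was 3.66, 3.44 and 3.10 in black-coated skin, against 3.56, 2.27 and 3.79 in white-coated skin, a span of 1.67-fold from lowest to highest. White replicate 5 (95% counting interval 1.85 to 2.79) lay below black replicate 1 (3.29 to 4.06) and white replicate 4 (3.03 to 4.21) by more than counting error. Over the same libraries CPA3 alone spanned 18.3-fold and MS4A2 alone 15.6-fold. The ratios of KIT to both spanned more. The ratio of KIT to CPA3 was 0.882, 3.97 and 6.68 in black-coated skin, against 0.94, 1.86 and 1.66 in white-coated skin. Black replicates 2 and 3 were thus above all white libraries, and black replicate 1 was the lowest. The 95% counting intervals of black replicate 1 (0.822 to 0.946) and white replicate 4 (0.842 to 1.05) overlapped, so these libraries cannot be ordered. The interval was 3.25 to 4.87 in black replicate 2 and 1.62 to 2.14 in white replicate 5, and all such intervals cover counting error only.

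The ratio of KIT to MS4A2 was also highest in black replicates 2 and 3. It was 3.22, 13.7 and 20.7 in black-coated skin, against 3.35, 4.22 and 6.29 in white-coated skin. Between genes, levels were compared in FPKM, which accounts for length. The authors' FPKM can be near 0 for a row with many reads, as for the KIT precursor, so such comparisons rest on their assignment of reads to rows. In FPKM KIT, by isoform X1, stood below CPA3 in black replicate 1 (17.99 against 68.6) and above it in black replicates 2 (4.76 against 4.16) and 3 (6.92 against 3.48). In each white library KIT was below CPA3, with 5.62 against 19.6, 5.39 against 9.66 and 2.58 against 5.18 FPKM in white replicates 4 to 6.

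Pigment genes were set beside KIT because melanocytes carry it too. The summed level of TYR, TYRP1, PMEL and MLANA, which make melanin or build the melanosome, was 30.4, 800 and 921 CPM in black replicates 1 to 3. It was 4.15, 2.41 and 2.76 CPM in white replicates 4 to 6. All black libraries were above all white ones, with black replicate 1 far below the other black libraries. Of 13 tested melanocyte genes 0 passed in edgeR, and 9 did, all higher in black-coated skin, without black replicate 1. In that setting KIT did not pass. The highest ratios of KIT to CPA3 and to MS4A2 were in the 2 libraries with the highest pigment sum, black replicates 2 and 3. These 2 libraries also had the lowest CPA3 (8.89 and 6.45 CPM) and MS4A2 (2.58 and 2.08 CPM). KIT itself had 35.3 CPM in black replicate 2, against 35.9 CPM in white replicate 4. For black replicate 2 a high ratio depended on the marker. KIT to FCER1A was 1.80, 3.22 and 8.58 in black-coated skin, against 3.94, 3.86 and 3.43 in white-coated skin. Black replicate 2 was there below all white libraries. KIT to the tryptase-2 sum given below was 0.300, 0.365 and 1.11 in black-coated skin, against 0.216, 0.288 and 0.188 in white-coated skin. With this marker black replicates 3 and 2 were again the highest. Black replicate 1, whose pigment sum was low, lay just above white replicate 5, so all black libraries were above all white ones. Black replicate 1, with the highest KIT, had the lowest pigment sum of the black libraries and the highest sum of the 5 mast cell genes CPA3, MS4A2, FCER1A, HDC and HPGDS. Of the 13 tested melanocyte genes 2 were highest in black replicate 1, as KIT was, where 30.3% of all tested genes were. Both are transcription factors. SOX10 had 20.1, 10.3 and 18.6 CPM in black-coated skin, against 9.50, 6.75 and 7.01 CPM in white-coated skin. MITF had 96.2, 82.9 and 88.9 CPM in black-coated skin, against 84.97, 78.8 and 65.96 CPM in white-coated skin. SOX10 lay wholly higher in black-coated skin, and for MITF black replicate 2 lay below white replicate 4.

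That mast cell sum was 232, 24.2 and 14.4 CPM in black-coated skin, against 63.97, 38.5 and 21.5 CPM in white-coated skin. In the white libraries TYR and MLANA had 0 reads, while other melanocyte genes of the list were present and KIT stood between 18.7 and 35.9 CPM. DCT, a melanin enzyme, had 35, 42 and 15 reads and PMEL 72, 40 and 37 reads in white replicates 4 to 6. In black replicate 3 the mast cell sum was the lowest of all, and KIT stood at 43.1 CPM. What share of the KIT reads came from either cell type was not tested, since bulk libraries do not assign reads to cells.

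**Figure D3:**
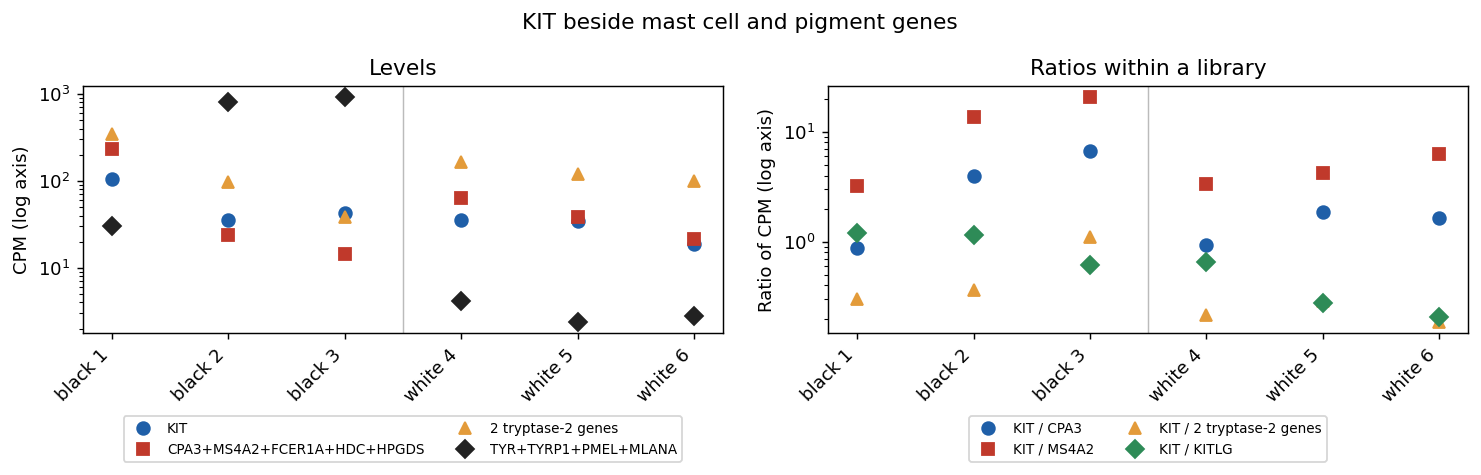
Left, levels in CPM (log axis) of KIT, of the sum of CPA3, MS4A2, FCER1A, HDC and HPGDS, of the sum of both tryptase-2 genes and of the sum of TYR, TYRP1, PMEL and MLANA in each library. Right, ratios within a library (log axis), in which KIT to CPA3 and KIT to MS4A2 are highest in black replicates 2 and 3.

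The tryptases, the most abundant granule proteases of mast cells in many mammals, are listed under placeholder names and were found by their descriptions after values had been seen. LOC102177855, tryptase-2, had 211, 55.4 and 25.4 CPM in black-coated skin, against 106, 87.6 and 75.1 CPM in white-coated skin. LOC102178129, also tryptase-2, had 137, 41.2 and 13.5 CPM in black-coated skin, against 60.2, 31.9 and 24.7 CPM in white-coated skin. Both were highest in black replicate 1 and lowest in black replicate 3, as CPA3 was. Unlike CPA3, LOC102178129 in black replicate 2 lay above white replicates 5 and 6. In FPKM LOC102177855 had 170, 35.6 and 19.1 in black-coated skin, against 77.8, 63.8 and 51.1 in white-coated skin. LOC102178129 had 136, 32.2 and 12.2 FPKM in black-coated skin, against 52.7, 26.0 and 18.9 FPKM in white-coated skin. Each was above both CPA3 and KIT in FPKM in every library. Reads could be split between such near-identical copies, so their separate levels are uncertain. The sum of both was 348, 96.6 and 38.8 CPM in black-coated skin, against 166, 120 and 99.8 CPM in white-coated skin.

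A further 13 genes are described as mast cell proteases, a family of chymase-like granule enzymes in ruminants. Of these 7 had at least 10 reads in all and 2 had 0 reads. Their reads summed to 140, 45 and 31 in black-coated skin, against 737, 57 and 12 in white-coated skin. White replicate 4 was the highest library here, not black replicate 1. LOC102174387, mast cell protease 2, had 3.90, 1.22 and 0.0866 CPM in black-coated skin, against 22.6, 1.47 and 0.283 CPM in white-coated skin. LOC108638461, mast cell protease 1A, had 4.19, 0.789 and 0.13 CPM in black-coated skin, against 7.63, 0.587 and 0.142 CPM in white-coated skin. Black replicate 1 and white replicate 4 thus both ranked high in CPA3 and tryptase but in another order for these proteases.

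Of 20 other listed mast cell genes 13 were in the table and 9 could be tested. In edgeR 0 passed in either direction, and 7 were highest in black replicate 1. Their median log2 fold change was 0.71, and -0.69 without black replicate 1, beside 0.02 and 0.00 for all genes. IL1RL1, the receptor of interleukin 33, had 30.0, 3.59 and 3.90 CPM in black-coated skin, against 4.72, 3.94 and 3.05 CPM in white-coated skin. SLC18A2, which loads histamine into granules, had 9.72, 1.29 and 2.04 CPM in black-coated skin, against 5.29, 3.41 and 2.69 CPM in white-coated skin. The other listed genes with values chosen by level or fold were VWA5A, ADORA3, an adenosine receptor, and TESPA1. VWA5A had 136, 39.2 and 52.4 CPM in black-coated skin, against 104, 88.6 and 75.7 CPM in white-coated skin. ADORA3 had 20.1, 4.23 and 1.39 CPM in black-coated skin, against 3.70, 5.29 and 4.39 CPM in white-coated skin. TESPA1 had 9.44, 1.58 and 1.13 CPM in black-coated skin, against 2.28, 2.64 and 1.20 CPM in white-coated skin. All 3 were highest in black replicate 1, and without it VWA5A lay wholly lower in black-coated skin (log2 fold change -0.96, SE 0.20, edgeR adjusted p = 0.236). ENPP3, an enzyme on the surface of mast cells and basophils, went another way, at 6.39, 6.74 and 12.3 CPM in black-coated skin, against 7.17, 3.94 and 6.73 CPM in white-coated skin. IL4 and CTSG had 0 reads in every library.

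The remaining genes of the IgE receptor pathway were mostly highest in black replicate 1 too. Of 16 tested genes 0 passed in edgeR and 12 were highest in that library, and the median log2 fold change was 0.87, and 0.02 without it. FCER1G, the signalling chain shared by IgE and IgG receptors, had 66.1, 25.9 and 8.40 CPM in black-coated skin, against 17.8, 15.4 and 14.2 CPM in white-coated skin. BTK, a kinase downstream of the receptor, had 37.4, 3.59 and 1.78 CPM in black-coated skin, against 7.80, 5.23 and 3.76 CPM in white-coated skin. FCER1G lay in black replicate 2 above all white libraries, whereas BTK lay in black replicates 2 and 3 below them. Both genes are also used by macrophages or B cells. RASGRP4, a Ras activator of mast cells, had 13.3, 4.52 and 1.13 CPM in black-coated skin, against 3.02, 2.17 and 1.63 CPM in white-coated skin. ITPKB, an inositol phosphate kinase, had 83.4, 71.4 and 91.2 CPM in black-coated skin, against 103, 102 and 84.4 CPM in white-coated skin, and was not high in black replicate 1.

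Genes downstream of KIT or involved in shedding its ligand were mixed. Of 27 tested genes 0 passed in edgeR and 13 were highest in black replicate 1, where 30.3% of all genes were. Their log2 fold changes had a median of 0.10. The mean over the list stayed within 0.25 log2 units of its average in every library. GRB2, an adaptor that binds activated KIT, had 99.9, 104 and 79.5 CPM in black-coated skin, against 82.2, 79.8 and 88.8 CPM in white-coated skin. MAPK3, the kinase ERK1, had 123, 151 and 132 CPM in black-coated skin, against 142, 107 and 118 CPM in white-coated skin. PIK3CD, the leukocyte form of the PI3-kinase catalytic subunit, had 26.3, 11.9 and 6.84 CPM in black-coated skin, against 7.91, 6.52 and 6.02 CPM in white-coated skin. PIK3CD was the only one of these 3 with a clear high in black replicate 1. MMP9, a protease that releases KITLG from cells, had 4.26, 1.15 and 1.95 CPM in black-coated skin, against 0.74, 1.23 and 0.425 CPM in white-coated skin. MMP9 had the largest fold of the list (log2 1.59, SE 0.65, edgeR adjusted p = 0.999995) among its genes with a mean of at least 1 CPM, and its groups overlapped.

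Most tested partners of HDC and HPGDS were highest in black replicate 1 too. These were 5 of 6 genes of histamine handling and 4 of 6 of prostaglandin D2 handling, where 30.3% of all genes were. HNMT, which inactivates histamine, had 42.3, 11.3 and 9.61 CPM in black-coated skin, against 19.6, 14.5 and 10.8 CPM in white-coated skin. HRH1, a histamine receptor, had 38.5, 8.53 and 9.61 CPM in black-coated skin, against 12.98, 10.5 and 7.16 CPM in white-coated skin. Both were highest in black replicate 1. AOC1, diamine oxidase, which also breaks histamine down, had 18.4, 34.4 and 1.95 CPM in black-coated skin, against 10.2, 4.70 and 3.12 CPM in white-coated skin, and was highest in black replicate 2. PTGDR2, a prostaglandin D2 receptor, had 10.9, 1.15 and 0.433 CPM in black-coated skin, against 0.911, 0.881 and 1.13 CPM in white-coated skin. PTGS1, the cyclooxygenase upstream of both synthases, had 69.7, 11.04 and 11.4 CPM in black-coated skin, against 23.6, 11.9 and 13.5 CPM in white-coated skin. HPGD, which breaks prostaglandins down, had 89.3, 13.6 and 15.8 CPM in black-coated skin, against 33.7, 24.5 and 17.8 CPM in white-coated skin. These 3 genes were highest in black replicate 1. LOC106502686, described as prostaglandin-H2 D-isomerase and thus the other enzyme that makes prostaglandin D2, had 55.4, 42.8 and 34.0 CPM in black-coated skin, against 48.7, 30.5 and 48.2 CPM in white-coated skin. It too was highest in black replicate 1, but it spread far less than HPGDS. Of the 6 tested genes of each list 0 passed in edgeR.

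Markers of other cell types moved with black replicate 1 as well. Of 11 tested macrophage genes 11 were highest there. Their summed level was 1307, 570.2 and 199.9 CPM in black-coated skin, against 296, 290.2 and 292 CPM in white-coated skin. T cell genes were highest there in 7 of 8, with sums of 72.8, 16.2 and 16.2 CPM in black-coated skin, against 50.8, 26.2 and 24.4 CPM in white-coated skin. White replicate 4 was second for T cell genes, as it was for CPA3. The summed dendritic and Langerhans cell genes had 81.7, 17.4 and 9.05 CPM in black-coated skin, against 16.2, 18.0 and 16.9 CPM in white-coated skin. Most of the sum in black replicate 1 came from 1 gene, CD1E, a dendritic cell gene. CD1E had 56.9, 7.24 and 1.21 CPM in black-coated skin, against 1.14, 1.82 and 1.84 CPM in white-coated skin. CD207, the defining Langerhans cell gene, was lowest in black replicate 1, at 0.851 CPM against 1.15 to 4.44 CPM in the other 5 libraries. Basophils and eosinophils share several genes with mast cells, and 2 of the 6 listed genes found in the table could be tested. CSF2RB, the receptor chain shared by interleukins 3 and 5, had 276, 56.4 and 53.5 CPM in black-coated skin, against 93.6, 70.7 and 48.4 CPM in white-coated skin. IL3RA, the interleukin 3 receptor, had 8.66, 3.87 and 5.98 CPM in black-coated skin, against 5.35, 5.05 and 6.94 CPM in white-coated skin. CCR3, an eotaxin receptor of eosinophils, had 81, 2 and 4 reads in black-coated skin, against 1, 1 and 7 reads in white-coated skin. IL5RA had 56, 1 and 4 reads in black-coated skin, against 6, 1 and 3 reads in white-coated skin. CEBPE had 42, 1 and 1 reads in black-coated skin, against 0 in each white library. EPX, eosinophil peroxidase, had 0 reads in all. Whether macrophages, basophils or eosinophils carry part of the FCER1A, HDC or HPGDS reads was not tested.

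**Figure D4:**
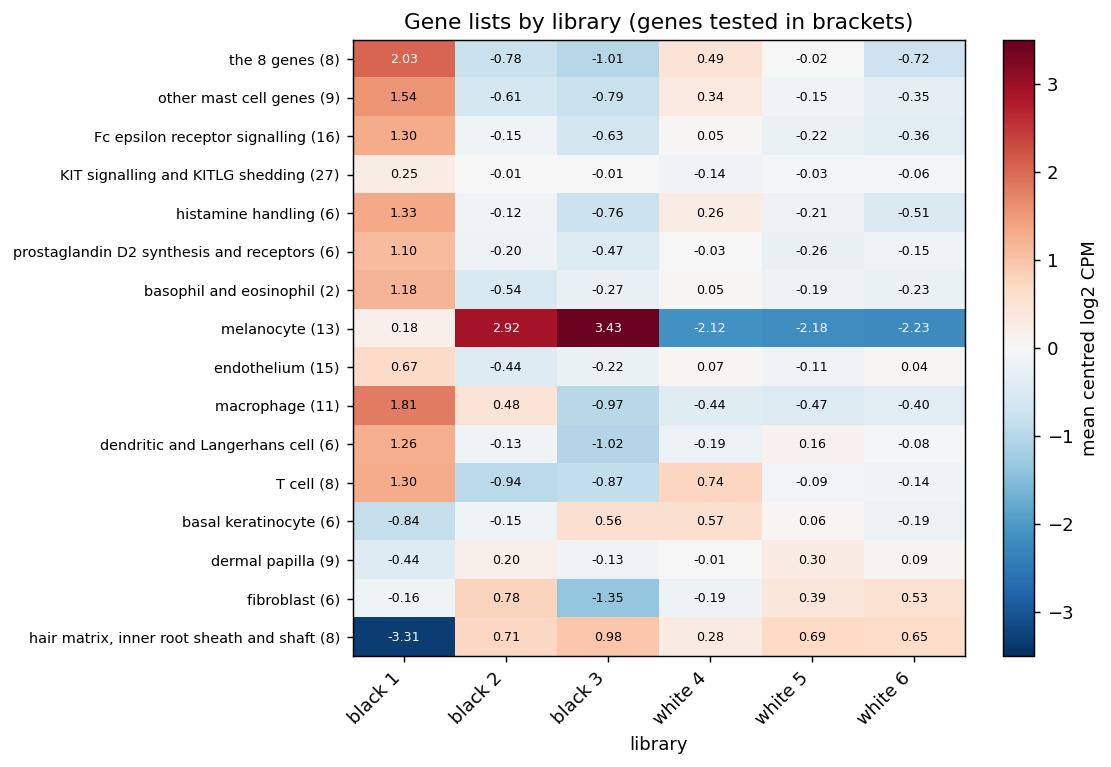
Mean over the tested genes of each list of log2 CPM centred on the mean of the 6 libraries, by library, with the number of genes in brackets. Black replicate 1 is highest for the 8 genes (2.03), the other mast cell genes (1.54) and macrophage genes (1.81) and lowest for hair genes (-3.31), and melanocyte genes are highest in black replicates 2 and 3 (2.92 and 3.43).

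Lists of cell types that make KITLG were set beside it, and their part in its values was not tested. Basal keratinocyte genes, of which 6 were tested, lay 0.84 log2 units below their mean in black replicate 1 and were highest in white replicate 4 (0.57) and black replicate 3 (0.56). Dermal papilla genes, of which 9 were tested, ranged from -0.44 in black replicate 1 to 0.30 in white replicate 5. The 6 fibroblast genes ranged from -1.35 in black replicate 3 to 0.78 in black replicate 2, where KITLG was lowest. Endothelial genes, of which 15 were tested, ranged from -0.44 in black replicate 2 to 0.67 in black replicate 1. They lay at -0.11 in white replicate 5, where KITLG was highest.

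Likeness of pattern was measured as the root mean squared difference of centred log2 CPM over the 6 libraries, among 12875 other named genes with a mean of at least 1 CPM. Closest to CPA3 were GATA1 (0.23), PADI2 (0.24), MS4A2 (0.25), BTK (0.30) and SLAMF6 (0.34), followed by HPGDS (0.36, rank 6) and HDC (0.37, rank 7). FCER1A came at rank 141, GATA2 at rank 147 and KIT at rank 884. GATA1, a transcription factor of red cell precursors and mast cells, had 5.11, 0.359 and 0.39 CPM in black-coated skin, against 1.94, 0.764 and 0.567 CPM in white-coated skin. Its highest 4 libraries came in the order of those of CPA3, and black replicates 2 and 3 were the lowest for both.

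Closest to KIT were PBX3 (0.15), TMEM8A (0.18), FGD4 (0.19), EEF1A2 (0.21) and DNASE1 (0.22). None of the other 7 genes was among them: GATA2 came at rank 2515, FCER1A at 2916, KITLG at 10100, MS4A2 at 10710, HPGDS at 10877, CPA3 at 11050 and HDC at 12063. PBX3, a homeobox transcription factor, had 21.0, 9.47 and 9.18 CPM in black-coated skin, against 9.28, 8.11 and 4.75 CPM in white-coated skin. Closest to KITLG were LYRM7 (0.20), ZNF461 (0.21), ZNF268 (0.22), ST8SIA4 (0.22) and TCEANC (0.23), with KIT at rank 11080. These ranks describe 6 libraries, and most of the KIT and CPA3 patterns lies in the height of black replicate 1. The measure counts the size of a swing as well as its direction. A gene that swings more widely than KIT thus ranks far from it even where both move together. Over the libraries KIT spanned 5.58-fold, CPA3 18.3-fold, MS4A2 15.6-fold, HPGDS 24.3-fold and HDC 31.2-fold. A far rank from KIT therefore does not show that a gene moved in another direction.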

How the data were processed

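Per the file headers, the deposited table holds a read count and an FPKM value for each transcript row and library. Bowtie2 2.0.6, Cufflinks and HISAT2 appear in the submitters' processing notes, with no roles. How reads were counted, on which genome build and annotation, and whether by strand, is not given in the sources used. Of 53266 rows, 189 without a gene name (0.00376% to 0.0675% of a library's summed rows) and 1770 of transfer RNA (0.000242% to 0.000467%) were left out. Each gene was represented by its row of largest total (in a tie, the first listed), without summing rows. edgeR 4.0.16 (R 4.3.3; filterByExpr, TMM, robust quasi-likelihood test, Benjamini-Hochberg over all genes, adjusted p of 0.05) gave the main results, and all 8 genes passed its read filter. The SE was the size of the log2 fold change over the square root of F. Centred log2 CPM used a prior count of 1. Alternatives were DESeq2 1.42.0, limma 3.58.1 (voom, and log2(FPKM + 1) or log2(FPKM + 0.1)), other scalings, filters and transcript rows, and leaving out each library. Counting intervals are Poisson or Clopper-Pearson at 95%, both exact. Groups came from the region in the labels. The genes, lists and alternatives were chosen with earlier results of these data known. Named were all 8 genes, in each pathway list the 2 highest by FPKM and the 2 largest fold changes, and the 5 nearest in pattern to KIT, KITLG and CPA3. Marker lists of other cells are given as sums or means. The melanocyte genes and the genes found by description were named after their values were seen. So were SLC18A2, ENPP3, CD1E, CD207, CCR3, IL5RA, CEBPE, EPX, IL4 and CTSG. EPX, CTSG and 2 more listed genes were matched by description. Sequences were not analysed here.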

Additional observations from a re-analysis of the deposited data

How the results depend on the processing

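The count of the 8 genes called stayed at 0 under all alternatives. The count over all genes was 0 with edgeR, 78 with DESeq2, 1 with limma on log2(FPKM + 1) and 6 on log2(FPKM + 0.1), and it ran from 0 to 16 when 1 library was left out, the highest without black replicate 1. Scaling by DESeq2 size factors or library totals, other filters and other transcript rows turned no sign. By limma-voom the log2 fold change was -0.24 for CPA3, -0.39 for MS4A2, -0.19 for HDC and -0.15 for HPGDS, and MS4A2 was also -0.13 on log2(FPKM + 0.1), and the cause was not tested. Leaving out each library gave log2 fold changes from 0.40 to 1.30 for KIT, -0.83 to -0.20 for KITLG, -1.57 to 1.58 for CPA3, -1.65 to 1.25 for MS4A2, 0.02 to 2.13 for FCER1A, -1.99 to 2.28 for HDC, -0.73 to 0.96 for GATA2 and -1.14 to 1.67 for HPGDS. The lowest value was without black replicate 1 for all 8 genes. GATA2 also turned without white replicate 5 (-0.05) and white replicate 6 (-0.02). No paired analysis was possible because the groups share no replicate numbers. Depth limits HDC and HPGDS most, with as few as 6 and 10 reads in a library.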
